A study of Schizosaccharomyces pombe with 12 samples.

Results

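The genes described here lie near the ends of chromosomes I and II of the fission yeast Schizosaccharomyces pombe. They were chosen by the clone name in their systematic ID alone: all rows whose ID begins with SPAC212, SPAC977, SPAC11D3, SPAC750, SPAC186, SPAC1039, SPBC1348, SPBPB8B6, SPBPB21E7, SPBPB10D8, SPBC359, SPBCPT2R1 or SPBPB2B2, without SPAC1039.09 (isp5). The rule itself uses no measured value, although these genes were proposed with earlier results of these data known. It gave 130 genes of the 5136 rows of the deposited tables. By ID, all 130 were found in the ASM294v3 annotation: 43 at the left end of chromosome I, 27 at its right end, 38 at the left end of chromosome II and 22 at its right end.

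Near the telomeres of these chromosomes, the methyltransferase Clr4 marks histone H3, and proteins such as Swi6 bind the mark and form heterochromatin that represses transcription. The genes there are a mixed set, with transporters, sugar and amino acid enzymes, cell-surface proteins and helicases, and many belong to families with near-identical copies at several chromosome ends. Many are known for low expression in growing cells and for induction under starvation or stress.

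The study compared wild-type cells with delta4dus cells, both in mid-log growth without cycloheximide, by ribosome footprints and by total RNA. Each genotype has 3 libraries per assay, lettered A to C, 12 in all. The labels give no strain background and do not say how the dus genes were deleted, or that the letters stand for separate cultures, so the p-values measure the spread between these samples, which may be technical. The dus genes encode the enzymes that make dihydrouridine in tRNA.

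Footprint libraries held 601969 to 2591755 counts and total RNA libraries 1886954 to 2199320, and the wild-type footprint libraries B and C were the shallowest. Within a genotype no pair of libraries agreed as closely as counting noise alone (chi-square per degree of freedom 1.45 to 1.66 for footprints and 1.75 to 4.57 for total RNA). As a check of the genotype labels, mean footprints in CPM (counts per 1000000 counts of the TMM-adjusted library size) were 40.2 in wild type and 0.0 in delta4dus for dus1, 20.1 and 2.54 for dus2, 78.8 and 0.316 for dus3, and 15.5 and 5.54 for dus4. The total RNA rows carry a strand limit. Over all rows matched with a coding length, the density of a row in total RNA had a Spearman correlation of -0.09 with its own footprint density (n = 5105). In the rows with footprint signal from an opposite-strand gene (n = 1908) this value was -0.06. There the CPM of the row in total RNA correlated at 0.69 with the summed opposite signal, footprint density times overlap. Unlike the own-footprint values, this one is not scaled to length. For the near-end genes the own-footprint value was 0.21 (n = 130). Among the 19 with an opposite signal it was -0.17, and the value for the opposite signal was 0.56. Without an opposite signal the own-footprint value was 0.25 for the near-end genes (n = 111) and -0.10 over all rows (n = 3197). A coding gene overlaps 20 of the 130 on the opposite strand, and a noncoding RNA 78 of them. Total RNA rows are therefore described as rows, not as the mRNA of the named gene.

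Genes near the ends had few footprints in wild type, but they were not uniformly silent. Of the 130, 43 (33.1%) had at most 3 counts summed over the 3 wild-type footprint libraries, against 249 of 5136 rows (4.85%). A count of 0 was found for 21 of them in wild type (2.12% of all rows had none), and for 10 in all 6 footprint libraries, while a count of 0 still allows 1.25 to 4.68 CPM in a library of these depths. Those 10 include the pyruvate decarboxylase gene pdc102, the hexose transporter gene ght7, the L-lactate dehydrogenase gene SPAC186.08c and the helicase-like gene SPAC212.06c. Such limits cover counting error only.

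The median wild-type footprint density was 2.92 CPM per kb of coding length for the near-end genes and 28.4 CPM per kb for all rows. That median stood at percentile 8.76 of all rows, and 16 of the 130 (12.3%) were above the median of all rows. For comparison, 15 of the 110 other genes among the outermost 60 of each end (13.6%) had at most 3 counts. Their median density was 17.6 CPM per kb. The groups differ in position, as 107 of the 110 lay at ranks 21 to 60. At those ranks 13 of the 107 (12.1%) had at most 3 counts, against 4 of 53 chosen genes (7.55%). Median densities there were 18.8 and 6.83 CPM per kb. Low counts were most frequent toward the telomere. Among the outermost 10 genes of each end, 20 of 40 had at most 3 counts, and among the next 10, 19 of 37. From rank 21 to 30 the count was 2 of 17, and beyond rank 30 it was 2 of 36. Across the 130 genes, rank from the end and density had a Spearman correlation of 0.35, a description over genes that share libraries and, for copies, sequence.

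**Figure D1:**
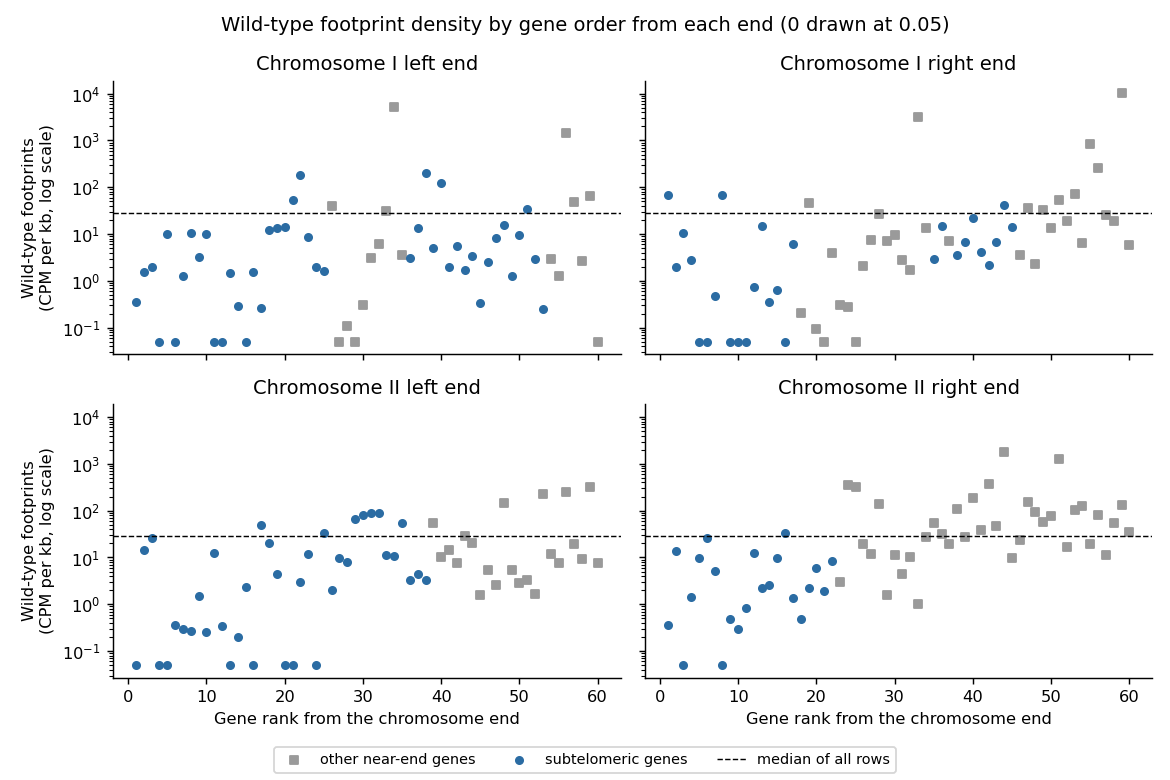
Wild-type footprint density (CPM per kb of coding length, log scale) against gene rank from the end, for each end of chromosomes I and II. Blue circles are the 130 genes chosen by clone prefix, grey squares the 110 other genes of the outermost 60, points at 0.05 stand for 0 counts, and the dashed line is the median of all rows (28.4). Genes without footprints crowd the first 20 ranks, where single genes also reach over 60.

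Clone by clone the share of genes with at most 3 counts ran from none to most. It was 7 of 9 for SPAC186 and 9 of 13 for SPBC1348, but 0 of 10 for SPAC1039, 0 of 6 for SPBC359 and 0 of 6 for SPBPB10D8. By the wording of the reference product, 21 of 44 genes of unknown role, 5 of 8 oxidoreductases, 6 of 24 transporters and 3 of 17 hydrolases were in this class.

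The helicase group shows the low end. tlh1 and tlh2 encode RecQ-type helicases and are the outermost genes at the left end of chromosome I and the right end of chromosome II. Each had 1, 2 and 2 footprint counts in wild-type A, B and C, and 0, 0 and 1 in delta4dus. The coding sequences are 99.98% alike over the aligned bases, so these footprints cannot be assigned to either gene. With SPAC212.06c, which had 0 counts in every footprint library, none of the 3 helicase genes had enough counts for a test.

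At the high end, the densest gene was SPAC11D3.02c, annotated as an acetyltransferase, at 200.5 CPM per kb in wild type. Its footprints were 98.2, 81.2 and 93.0 CPM in wild type and 103, 108 and 105 CPM in delta4dus. The delta4dus libraries were all higher, but the difference was not called (log2 fold change 0.18 ± 0.11 SE, edgeR adjusted p = 0.2412). SPAC977.14c, an aldo-keto reductase gene at rank 22 of the same end, followed at 185.7 CPM per kb. It had 193, 192 and 203 CPM in wild type and 210, 191 and 189 in delta4dus, so the groups overlapped. High footprints also occurred at the very end of a chromosome. SPAC750.08c, annotated as a malic enzyme gene and outermost at the right end of chromosome I (ASM294v3 chrI:5578447-5579133, minus strand), had a density of 68.3 CPM per kb. All of its coding windows of 30 bases also occur elsewhere in the genome, so these footprints may come from more than that locus. SPAC750.01, a copy of SPAC977.14c, had 68.5 CPM per kb. The other genes among the densest 10 were SPAC11D3.04c at 122, the tandem transporter genes SPBPB10D8.04c to 07c at 67.4 to 89.6, and the amino acid permease gene aat1 at 55.7.

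Sequence sharing limits what these counts say about a locus. With a copy defined as a protein at least 90% identical over at least 80% of the longer one, 51 of the 130 genes had a copy among them, in 19 sets of 2 to 5 genes and 51 pairs, of which 30 join chromosomes I and II. For 15 pairs the coding sequences were identical. Every 30-base coding window occurred elsewhere in the genome for 23 genes, and none did for 64. Of the 48 pairs with any footprint, 15 had equal counts in all 6 libraries, and with each set counted as 1, 28 of 98 units had at most 3 wild-type counts. Genes that shared over 99% of their windows were in that class in 13 of 26 cases, and those sharing under 1% in 16 of 68.

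The first coding bases below show a pair whose footprints cannot be told apart and a tandem family, both in lower case since no base differs in the window (RefSeq, ASM294v3). The phospholipase gene plb4 is at chrI:48101-48160 and SPBC1348.10c at chrII:28313-28372. Of the tandem transporter genes, SPBPB10D8.04c is at chrII:92804-92863 and SPBPB10D8.07c at chrII:101081-101140. All of these are on the minus strand.
plb4: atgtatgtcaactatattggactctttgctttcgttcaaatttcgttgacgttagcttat
SPBC1348.10c: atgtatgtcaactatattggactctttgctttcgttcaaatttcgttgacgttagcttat
SPBPB10D8.04c: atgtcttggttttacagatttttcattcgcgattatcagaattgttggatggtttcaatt
SPBPB10D8.07c: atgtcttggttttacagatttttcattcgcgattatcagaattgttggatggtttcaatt

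plb4 and SPBC1348.10c lie on different chromosomes and are identical over the whole coding sequence of 2022 bases. Both had 40, 13 and 27 footprint counts in wild type and 43, 44 and 53 in delta4dus, equal in every library. SPBPB10D8.04c to 07c are identical over 1140 bases, yet their summed footprint counts were 636, 799, 848 and 854. Their total RNA counts spread further, from 456 for SPBPB10D8.04c to 1901 for SPBPB10D8.07c. How the counting treated reads with several matches is not given in the sources used here.

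The asparaginase genes form pairs of copies whose footprint counts differed more between the pairs than within them. These enzymes hydrolyse asparagine to aspartate. The windows show bases 1 to 60 of the first pair and bases 922 to 981 of the second, 5′ to 3′, with the bases that differ within a pair in capitals (RefSeq, ASM294v3). SPAC186.03 is at chrI:5535198-5535257 (plus strand), SPBPB21E7.09 at chrII:76318-76377 (plus), SPAC977.12 at chrI:57413-57472 (plus) and SPBPB8B6.05c at chrII:54587-54646 (minus).
SPAC186.03: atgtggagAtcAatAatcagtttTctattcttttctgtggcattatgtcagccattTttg
SPBPB21E7.09: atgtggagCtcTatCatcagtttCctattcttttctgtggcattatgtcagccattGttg
SPAC977.12: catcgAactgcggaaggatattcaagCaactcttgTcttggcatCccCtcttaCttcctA
SPBPB8B6.05c: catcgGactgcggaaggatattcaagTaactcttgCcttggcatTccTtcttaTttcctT

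The first pair differs at 15 positions of 1083 coding bases, 5 of them in this window, and had 2 and 11 footprint counts in all 6 libraries together. The second pair differs at 13 of 1071, 7 of them in this window, and had 577 and 536. A wider gap stood between ftm4 and ftm5, which encode proteins with a transmembrane helix and are 99.8% alike in coding sequence. ftm4 had 9 footprint counts in all, and ftm5 had 161. Of the 30-base windows of ftm4 and ftm5, 96.8% and 100% also occur elsewhere in the genome. For the asparaginase pairs the shares were 76.85% and 87.81%. These counts therefore cannot show that copies differ at their own loci.

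**Figure D2:**
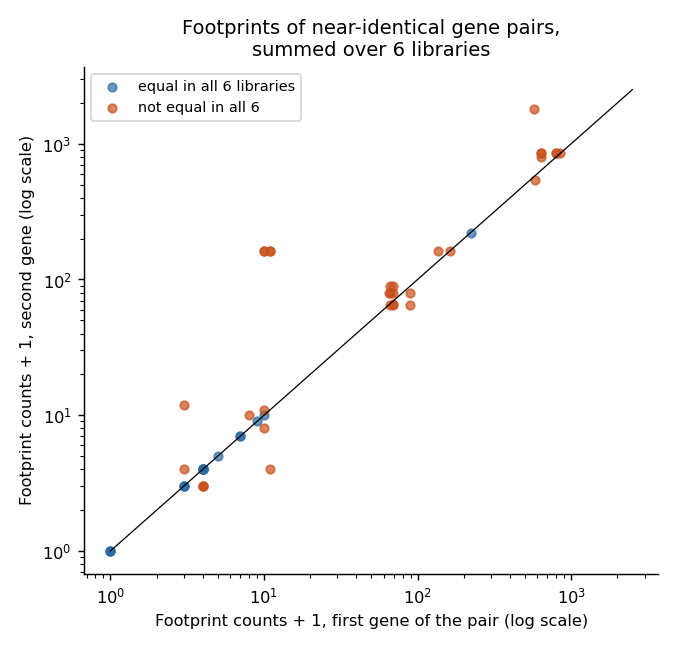
Footprint counts + 1, summed over the 6 footprint libraries, of both genes of each near-identical pair (log axes, 51 pairs). Blue points are pairs with equal counts in all 6 libraries, orange points all others, and the line marks equality; plb4 and SPBC1348.10c lie on it at 220 counts each, and ftm4 with 9 lies far from ftm5 with 161.

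In delta4dus the near-end genes changed in both directions in footprints. Of the 50 that passed the filter on low counts, 7 rose and 11 fell at an adjusted p under 0.05 by edgeR's quasi-likelihood test, 36% against 28.6% of the 4505 rows tested. Among all rows tested, 14.5% rose and 14.1% fell. The median log2 fold change was -0.14, against -0.03 for all rows tested. Of the 50, with copies counted separately, 32 were below 0, against 2397 of the 4505 rows. With each set of copies counted a single time, 7 rose and 10 fell. With all libraries thinned to equal depth the median was 0.0063, with 3 rises and 5 falls of 31 tested. Thinning gave 448 rises and 381 falls of 3631 rows. DESeq2 called 7 falls, against 335 of all rows. With no filter on low counts 8 rose and 19 fell of 120, against 680 and 643 of 5088 rows. The 8 calls among genes that the filter had left out were all falls. The libraries of the 2 genotypes did not overlap in CPM for any of the 18 called genes. The outermost genes leaned one way: all 10 tested at ranks 1 to 10 were below 0, with 0 rises, 2 falls and a median of -0.33. They belong to 5 sets of copies, the largest with 5 of the 10 genes, so they are not 10 separate measurements. A gene could also pass the filter through the libraries of either genotype alone, so being tested can already favour a change. The other near-end genes gave 8 higher and 23 lower of 80 tested, with a median of -0.14. Summed over the 130 genes with each set of copies counted a single time, footprints came to 1236, 1203 and 1253 CPM in wild type and 1213, 1293 and 1206 CPM in delta4dus. These sums overlapped (1231 ± 25.4 and 1237 ± 48.2, SD, n = 3 each). As a raw share of each library's counts, with every copy counted and no TMM scaling, the genes took 0.187, 0.191 and 0.211% in wild type and 0.159, 0.172 and 0.164% in delta4dus. That share was lower in every delta4dus library.

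**Figure D3:**
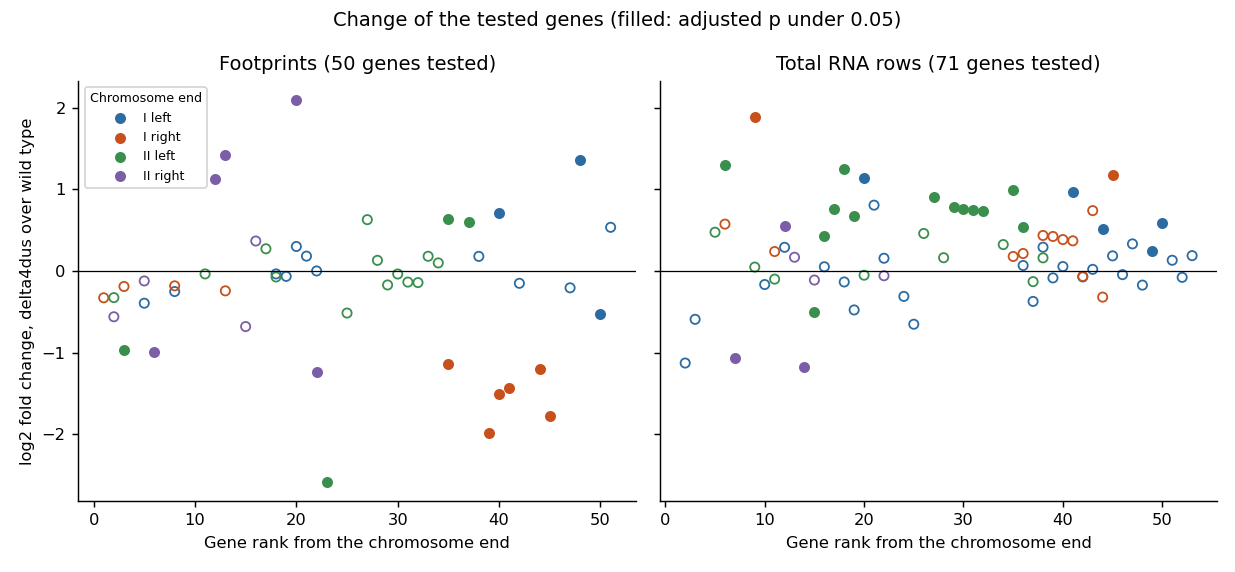
Log2 fold change of delta4dus over wild type against gene rank from the end, for footprints (50 genes, left) and total RNA rows (71 genes, right), coloured by chromosome end. Filled points have an edgeR adjusted p under 0.05. The filled footprint points lie on both sides of 0, with 6 of the 11 falls at the right end of chromosome I between ranks 35 and 45.

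Of the 11 falls, 6 came from a single stretch, the SPAC1039 genes at ASM294v3 chrI:5444851-5474945. All 6 of its tested genes fell, of 10 genes in the group. SPAC1039.01, SPAC1039.07c, klf1 and gto1 passed the filter on low counts through their wild-type libraries only. For them, being tested already favoured a fall. SPAC1039.02 and SPAC1039.06 had enough counts in both genotypes. Summed footprints of the 10 genes were 167, 185.8 and 170 CPM in wild type and 73.7, 70.9 and 62.3 in delta4dus. The ranges were far apart (174 ± 10.1 and 68.9 ± 5.92 CPM, SD, n = 3 each), with a ratio of 0.396. The total RNA rows of the stretch did not share this, at 310 CPM in wild type and 377 in delta4dus. Without these genes, a choice made after seeing the data, the near-end set had 7 rises and 5 falls of 44 tested. That was 27.3%, against 28.6% of all rows tested, and the median was -0.07.

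The stretch holds genes of amino acid transport and use. SPAC1039.01, an amino acid permease gene, had 22.5, 24.99 and 26.6 CPM in wild type and 6.24, 10.1 and 4.99 CPM in delta4dus. It was lower in every delta4dus library (log2 fold change -1.78 ± 0.29 SE, edgeR adjusted p = 8.031e-07). SPAC1039.07c, annotated as a transaminase gene, went from 9.20 ± 1.87 to 2.27 ± 0.896 CPM (-1.99 ± 0.45 SE, adjusted p = 0.0002585). Next to it, SPAC1039.06, annotated as a D-serine ammonia-lyase gene, had 24.7, 31.2 and 26.6 CPM in wild type and 6.87, 10.1 and 10.4 in delta4dus. Again the groups were apart (-1.51 ± 0.27 SE, adjusted p = 3.274e-06). These neighbours overlap by 237 bases on opposite strands.

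SPAC1039.02, a phosphatase gene and the densest of the stretch at 42.0 CPM per kb, fell as clearly. It had 67.0, 95.3 and 65.2 CPM in wild type and 39.3, 31.4 and 26.6 CPM in delta4dus, with no overlap (log2 fold change -1.19 ± 0.17 SE, adjusted p = 7.056e-09). klf1, which encodes a zinc-finger transcription factor, fell by 1.43 on the log2 scale, and gto1, an alpha-glucosidase gene, by 1.14. Both calls were less firm: klf1 had an adjusted p of 0.004001, but 0.1225 without wild-type library A, and gto1 had 0.027, but 0.1618 without that library and over 0.05 without wild-type C or delta4dus B or C. The 4 genes with too few counts for the test were mmf2, SPAC1039.03, SPAC1039.04 and SPAC1039.08. Of these, mmf2 (5.62 and 1.92 CPM) and SPAC1039.08 (2.94 and 1.68 CPM) had all delta4dus libraries below all wild-type ones, and SPAC1039.03 and SPAC1039.04 overlapped.

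isp5, the amino acid permease gene that the choice of members leaves out, lies within the stretch. Its footprints were 12.6, 10.9 and 13.3 CPM in wild type and 0.0, 0.533 and 1.66 in delta4dus, again without overlap (-3.75 ± 0.53 SE, adjusted p = 9.919e-09). Falls were not confined to the stretch. All 10 tested genes of the set at this chromosome end were below 0, with a median of -1.17, but 6 of them are those of the stretch. The 4 outside it were not called and lay closer to no change. They were SPAC750.08c (-0.33), gdt1 (-0.24), SPAC750.06c (-0.19) and SPAC750.01 (-0.18). Of the other genes at ranks 18 to 34 toward the telomere, 0 rose and 4 fell of 8 tested, with a median of -0.66. Of those at ranks 46 to 60 on the other side, 1 rose and 4 fell of 14 tested, with a median of -0.06. Neither count was tested against that of the stretch.

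**Figure D4:**
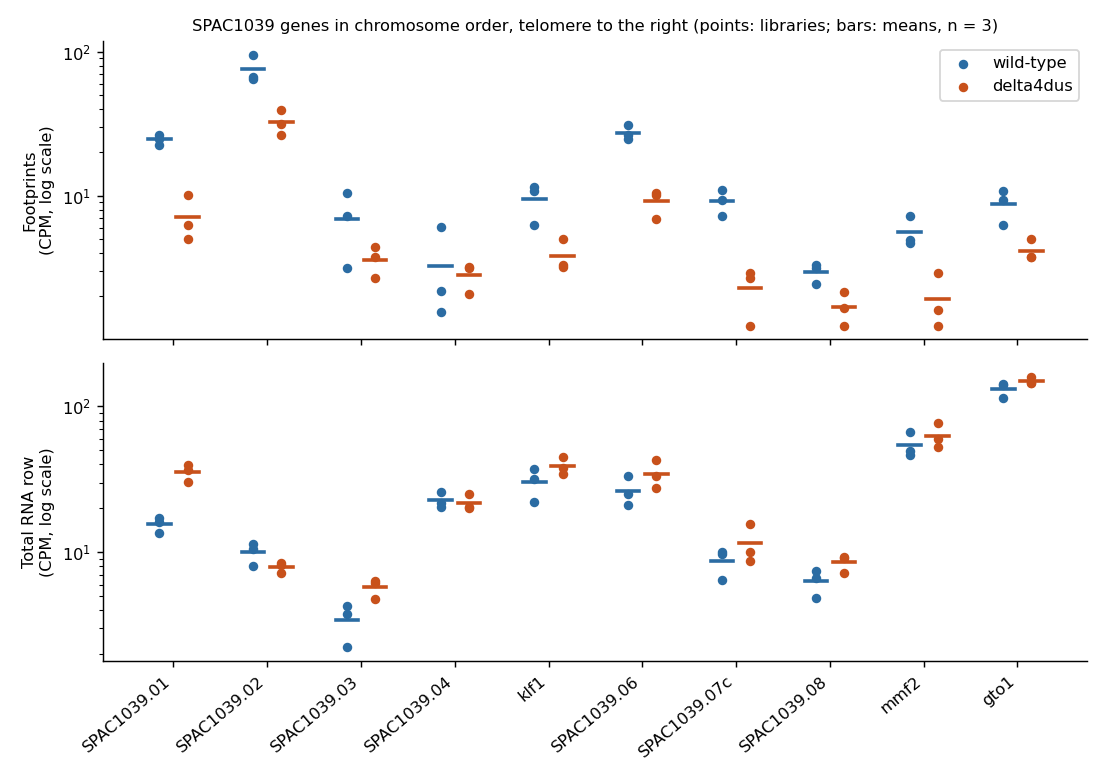
CPM (log scale) of the 10 SPAC1039 genes in chromosome order with the telomere to the right, for footprints (top) and total RNA rows (bottom). Points are libraries (blue wild-type, orange delta4dus) and bars are means of 3. In footprints 8 of the 10 genes have all delta4dus points below all wild-type points, and in the total RNA rows the means of most genes are level or higher in delta4dus.

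The other 5 falls were spread over 3 ends. cmt2, which encodes a catechol O-methyltransferase at the left end of chromosome II, had 7.68, 9.37 and 13.3 CPM in wild type and 0.0, 2.13 and 2.08 in delta4dus. All delta4dus libraries were lower, with the steepest fold among the called falls (log2 fold change -2.58 ± 0.51 SE, adjusted p = 2.994e-05). ftm5 and SPBPB2B2.19c, copies on different ends of chromosome II whose windows are all shared, fell by 0.97 and 0.99. Their counts differed only by 1 count in wild-type library B, so the pair is not 2 separate measurements. nrg1, an amino acid permease gene at the right end of chromosome II, had 13.7, 14.1 and 16.9 CPM in wild type and 6.87, 9.59 and 2.91 CPM in delta4dus. It fell by 1.24 (adjusted p = 0.004226), but the adjusted p was 0.1083 without delta4dus library C. SPAC11D3.15, annotated as an oxoprolinase gene of glutathione turnover, fell by 0.52, and this call was lost without any of wild-type A or B or delta4dus B or C (adjusted p 0.05772 to 0.1701).

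The 7 rises included sugar enzymes and transporters. gal1 encodes galactokinase and gal10 an epimerase of the same pathway, side by side at the right end of chromosome II. gal1 had 31.3, 12.5 and 14.5 CPM in wild type and 46.2, 57.0 and 47.8 in delta4dus, higher in every delta4dus library (1.13 ± 0.20 SE, adjusted p = 4.734e-06), and without wild-type library A, the highest of the wild-type libraries, the log2 fold change was 1.89. gal10 had 2.20, 6.25 and 6.04 CPM in wild type and 7.49, 13.9 and 10.8 CPM in delta4dus. Its groups were close but apart (1.42 ± 0.43 SE, adjusted p = 0.007038), and without wild-type library A the log2 fold change was 0.82 with an adjusted p of 0.2749. gal7, the uridylyltransferase gene of this pathway on the other side of tgd1, had 16.5, 7.81 and 8.46 CPM in wild type and 7.49, 5.33 and 9.97 CPM in delta4dus. These overlapped, and it was not called (-0.68 ± 0.34 SE, adjusted p = 0.1347).

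The greatest rise was that of SPBPB2B2.05, annotated as a glutamine amidotransferase family gene at the same end. It had 4.94, 6.25 and 2.42 CPM in wild type and 18.1, 21.3 and 19.5 in delta4dus. The groups were far apart (2.09 ± 0.35 SE, adjusted p = 1.139e-06). Of 13 tested transporter genes, 2 rose and 2 fell, 30.8% and so close to the 28.6% of all rows. aat1, an amino acid permease gene, had 107, 100.0 and 84.6 CPM in wild type and 164, 165 and 138 CPM in delta4dus. It rose in every delta4dus library (0.64 ± 0.10 SE, adjusted p = 6.388e-07), whereas the permease genes SPAC1039.01 and nrg1 were the 2 that fell. abc3, which encodes an ABC transporter of the vacuole membrane, rose by 0.60 on the log2 scale (adjusted p = 0.03126), a call lost without any library but delta4dus C (0.05314 to 0.08922).

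At the left end of chromosome I, hsp3104 encodes a glyoxalase of the ThiJ family, which removes methylglyoxal. It had 12.1, 4.69 and 14.5 CPM in wild type and 23.1, 30.4 and 31.6 in delta4dus, with no overlap (1.35 ± 0.26 SE, adjusted p = 2.316e-05). SPAC11D3.04c, a gene of unknown role with a SnoaL-like domain, had 48.8, 45.3 and 49.5 CPM in wild type and 79.3, 76.2 and 81.0 CPM in delta4dus. The groups were far apart (0.71 ± 0.14 SE, adjusted p = 2.906e-05). Of the 18 calls, 11 held under every alternative setting in which they were tested.

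Of the sums by clone, 5 were lower and 3 higher in all delta4dus libraries, and 5 overlapped. SPAC1039 had the lowest ratio of delta4dus to wild type, and SPBPB21E7, with cmt2, came next at 0.562 (49.1 ± 1.22 to 27.6 ± 8.75 CPM). SPBC359, with aat1 and abc3, had the highest at 1.49 (154 ± 11.6 to 230 ± 14.4 CPM). Among clones within the outermost 20 ranks, 3 were lower in every delta4dus library. These were SPAC186 at 0.651 (18.9 ± 4.59 to 12.3 ± 1.73 CPM), SPAC212 at 0.654 (21.8 ± 6.32 to 14.3 ± 2.79) and SPBC1348 at 0.759 (66.9 ± 11.1 to 50.7 ± 0.762). The other clones within those ranks overlapped: SPBCPT2R1 at 0.589, SPAC750 at 0.834 and SPBPB8B6 at 1.10. SPAC11D3 (1.18) and SPBPB2B2 (1.30) were higher in all, and SPAC977 overlapped at 0.986. These sums were not tested, and a few dense genes make up most of each.

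**Figure D5:**
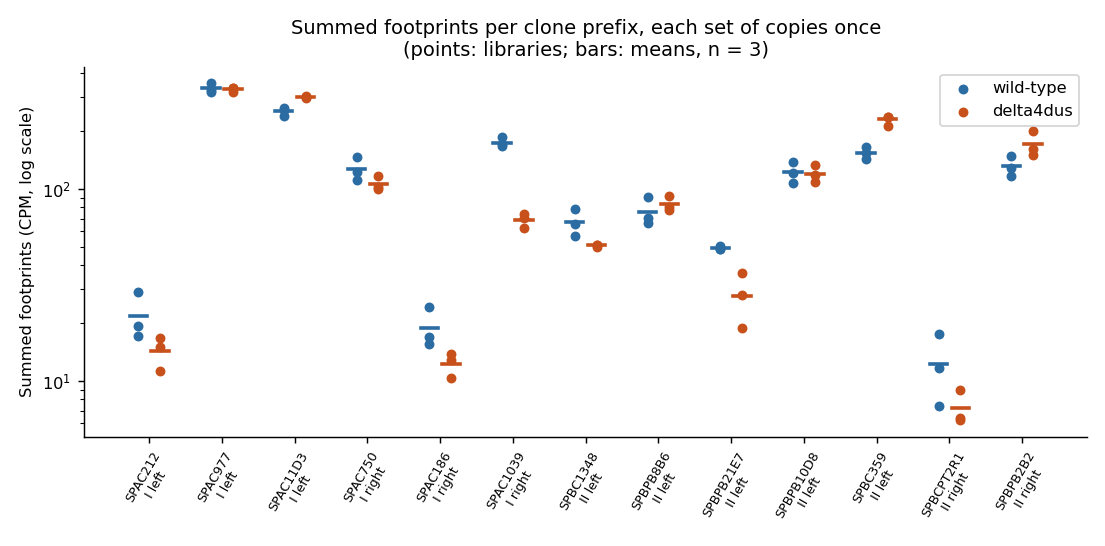
Summed footprints (CPM, log scale) of the genes of each clone prefix, with each set of copies counted a single time, by chromosome end. Points are libraries (blue wild-type, orange delta4dus) and bars are means of 3. SPAC1039, SPBPB21E7, SPAC186, SPAC212 and SPBC1348 are lower in all delta4dus libraries, SPBC359, SPAC11D3 and SPBPB2B2 are higher in all, and the other 5 overlap.

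In total RNA, more rows of the near-end genes rose than fell. Of 71 tested, 20 rose and 3 fell, 32.4% against 22.9% of the 3791 rows tested, of which 12.5% rose and 10.4% fell. The median log2 fold change was 0.19 against 0.08. The counts depended on scaling. With RLE size factors 15 rose and 5 fell, against 376 and 527 of all rows. DESeq2 called 7 rises and 2 falls, against 229 and 420 of all rows. Leaving out libraries cut the rises to 10 without delta4dus A, 8 without delta4dus B and 7 without wild-type A. Over all rows these fits gave 262, 294 and 287 rises, against 475 with all libraries. The falls came to 1 without delta4dus A, where 187 of all rows fell. Transporter rows made up 12 of the 20 rises, of 19 tested, though SPBPB10D8.04c to 07c, fex1 and fex2 are copies and so do not count separately.

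The steepest rise in total RNA was in the row of pdc102, which had no footprint in any library. It had 2.70, 1.67 and 1.60 CPM in wild type and 8.49, 6.70 and 7.20 CPM in delta4dus. Its groups were apart (1.88, adjusted p = 0.00324), and a noncoding RNA overlaps it on the opposite strand. fex1 and fex2, the fluoride export channel genes, rose by 1.14 and 1.25 on the log2 scale and differ at 1 of 936 coding bases. Both calls were lost without wild-type library C (adjusted p 0.05235 and 0.05035). Their footprints were not called (0.30 and -0.07). The row of SPAC1039.01 rose by 1.17 (adjusted p = 0.0006697) while its footprints fell. The rows of SPBC1348.05, a transporter gene, aat1, mfs2, a gene of the major facilitator family, and SPBPB8B6.05c rose by 1.30, 0.99, 0.96 and 0.75.

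SPBPB10D8.04c to 07c rose by 0.74 to 0.79 in total RNA and SPBPB10D8.01, a cysteine transporter gene, by 0.90. The calls of SPBPB10D8.01 and SPBPB10D8.04c to 06c were lost without delta4dus library B. The row of tgd1, a nucleotide-sugar dehydratase gene, fell furthest. It had 210, 336 and 238 CPM in wild type and 96.0, 132 and 122 CPM in delta4dus, without overlap (-1.17, adjusted p = 0.000151). gal10 covers 3291 bases of tgd1 on the opposite strand, and its footprints rose. The row of SPBPB2B2.18 fell by 1.06 (adjusted p = 0.03393) and that of grt1, a transcription factor gene overlapped over 1644 bases by fah1, by 0.50 (0.03692). Of the 15 total RNA calls among the steepest, those of SPAC1039.01 and tgd1 held under every alternative run. That of pdc102 held where it had an adjusted p, but DESeq2 gave none. Each of the other 12 was lost without at least 1 library.

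Translational efficiency, the change in footprints relative to total RNA, was higher for 4 and lower for 12 of 34 tested, 47.1% against 20.2% of the 3330 rows tested, of which 6.34% were higher and 13.9% lower. The median was -0.48 against -0.15. The higher genes were hsp3104, gal10, abc3 and SPAC11D3.04c. Of the 12 lower, 5 were SPAC1039 genes, led by SPAC1039.01 (-2.92, adjusted p = 6.502e-08), and 4 were SPBPB10D8.04c to 07c (-0.93 to -0.78). fex2, nrg1 and SPAC11D3.15 made up the rest. SPBPB10D8.04c to 07c are copies and so do not count separately, and their calls were lost without delta4dus library B (edgeR adjusted p 0.08067 to 0.1676). The count of lower genes was 7 without wild-type A and 6 without wild-type C, and that of higher genes 2 without delta4dus B. Over all rows tested these counts were 287, 363 and 163. Given the strand limit of the total RNA rows described above, these ratios are not read as translation per mRNA.

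Genes that build or silence chromosome ends were also looked up, from a list of 62 heterochromatin, silencing and telomere genes of which 61 were in the tables. Of 51 tested in footprints, 1 rose and 8 fell (17.6%, under the 28.6% of all rows), with a median of -0.16 against -0.03 for all rows. The rise was bdf2, a bromodomain protein gene, from 61.5 ± 11.8 to 111 ± 10.7 CPM (0.78 ± 0.13 SE, adjusted p = 3.623e-07). The falls, against a background of 14.1% among all rows, included dcr1, the dicer gene of RNA interference (-1.01 ± 0.37 SE, adjusted p = 0.02854), ago1, the argonaute gene (-0.79 ± 0.30 SE, adjusted p = 0.03693), tpz1 of the telomere cap (-1.11 ± 0.37 SE, adjusted p = 0.01724) and mmi1, a gene for an RNA-binding protein that removes meiotic transcripts (-0.47 ± 0.12 SE, adjusted p = 0.001281). The other falls were fft3 (-0.36, adjusted p = 0.0007523), hip3 (-0.60, adjusted p = 0.01084), slm9 (-0.66, adjusted p = 0.01993) and cid12 (-1.005, adjusted p = 0.04268). For ago1 the libraries overlapped, with 19.2, 14.1 and 23.0 CPM in wild type and 5.62, 17.6 and 9.555 in delta4dus. Those of slm9 overlapped too. How the calls of this list held under the alternative settings is not reported here. clr4 (-0.77, adjusted p = 0.07087) and swi6 (-0.11, adjusted p = 0.646) were not called in footprints. Their total RNA rows rose by 0.64 and 1.09 (edgeR adjusted p = 0.004334 and 0.005706), and their translational efficiency was called lower. Of 52 list rows tested in total RNA, 10 rose and 4 fell, 26.9% against 22.9% of all rows. Translational efficiency was lower for 9 of 45 (20%, against 20.2% of all rows called either way), with 0 higher. The strand limit of total RNA holds here too. The part of these listed genes in the values of the near-end genes was not tested.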

How the data were processed

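Ribosome-protected fragments of 28 to 32 nt and total RNA were sequenced from wild-type and delta4dus cells, per the labels' protocols. The authors deposited raw counts of reads, 1 table per assay. Per the submitters' processing notes the tools were HISAT2, featureCounts, Bowtie2 2.4 and Trimmomatic 0.36, and the build was ASM294v2; tool roles, strand setting and the treatment of multiply matching reads are not given in the sources used here. All 12 count columns were mapped to samples, with 0 left over. The authors' deposited comparison table was not used here. The 5136 rows were matched by systematic ID to RefSeq ASM294v3 (5105 with a coding length), which gave names, order, strand, coding length and the printed sequences.

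Whole tables were fitted with edgeR 4.0.16 in R 4.3.3 (TMM, filterByExpr, quasi-likelihood test, Benjamini-Hochberg over all rows tested, two-sided, threshold 0.05), with translational efficiency as the genotype by assay interaction over all 12 libraries. On simulated counts with known changes the fits were checked. CPM uses TMM-adjusted sizes, so a sum is relative to the other rows of its library. Copies were found with BLAST 2.17.0. Alternatives were DESeq2 1.42.0, RLE scaling, other filters, a replicate block, equal depth and leaving out each library.

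The members and lists were chosen with earlier results of these data known. Named genes are the called members (up to 12 rises and 12 falls per comparison by size), the 10 densest, tlh1 and tlh2, copy pairs and the dus genes; isp5, gal7, ght7, SPAC186.08c, SPAC212.06c, clr4 and swi6 were added after their values were seen. Product groups were read more widely than first worded, with lipase, asparaginase, phosphatase, glucosidase and similar words among the hydrolases and antiporter and drug resistance among the transporters.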

Additional observations from a re-analysis of the deposited data

How the results depend on the processing

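Against 11 lower footprint members, DESeq2 called 7, a mean of at least 50 counts 1 (with 3 higher, of 15 tested), no filter on low counts 19 (with 8 higher, of 120 tested), and libraries thinned to equal depth 5 (with 3 higher, of 31 tested); the stricter filter and the thinning leave fewer genes to test, and for DESeq2 the cause was not tested. Over all rows tested, falls came to 335 by DESeq2, 499 at the stricter filter, 643 with no filter and 381 after thinning, against 635. Without the SPAC1039 genes, chosen after seeing the data, 5 members fell. The footprint median was 0.0063 after thinning and ran from -0.19 to -0.0015 as each library was left out, with the value nearest 0 without wild-type library C. Higher counts ran from 5 to 8 and lower counts from 8 to 13 in those fits. Over all rows tested they ran from 517 to 619 and from 437 to 584. No named footprint call reversed direction; without a library or under another setting 7 of 18 were lost somewhere, hsp3104 after thinning alone (adjusted p = 0.07737).

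DESeq2 gave no adjusted p for 5 of the named total RNA calls. Total RNA rises came to 7 by DESeq2 and 13 at a mean of at least 50 counts, and from 7 to 16 as libraries were left out; falls came to 5 with RLE scaling, 1 at the stricter filter, and 1 to 2 with libraries left out. Over all rows, rises came to 229, 327 and 262 to 434, and falls to 527, 270 and 187 to 478, in that order. Translational efficiency gave 1 higher and 4 lower at the stricter filter (6 tested, median -0.89) and 19 lower with no filter. It gave 1 higher and 5 lower after thinning, and 2 to 4 higher and 6 to 13 lower with libraries left out. Over all rows these were 89 and 137, 465, 120 and 270, and 139 to 205 and 287 to 372. The count of 43 nearly silent genes was 21 at 0 counts, 65 at up to 10 counts, 28 with each copy set once (chosen after seeing the data), and 44 to 47 with wild-type libraries left out and a limit of 2 counts. In delta4dus libraries thinned to the wild-type totals it was 60, against 323 of all rows.

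Between genotypes, deviations of same-lettered libraries correlated at 0.0616, 0.0328 and 0.0345 in footprints and 0.00465, -0.0559 and -0.181 in total RNA. Without values for different letters beside them, these cannot decide whether the letters pair the samples, and the labels do not say. Footprints and total RNA of the same genotype and letter correlated at -0.0125 to 0.0332. With the letter as a block, footprints gave 7 higher and 9 lower, against 592 and 548 over all rows. Total RNA gave 10 higher and 1 lower, against 297 and 197. Translational efficiency, with genotype and letter together as the block, gave 4 higher and 12 lower, against 188 and 436. Depth limits the quietest genes: 80 of the 130 had too few footprint counts for a test.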
